A study of Mus musculus with 8 samples.

Results

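The 4 ATAC-seq libraries of mTEC-II and mTEC-III were compared with the 4 libraries of mTEC-I and mTEC-IV at every peak of the authors' merged table, 74090 peaks in all, and at the 15695 genes with at least 1 merged peak within 10 kb of the transcription start site. ATAC-seq uses a transposase to cut accessible DNA, so the number of tags over a peak measures how open the chromatin is there, not how much of a gene is transcribed. The difference reported throughout is the mean of the mTEC-II and mTEC-III means minus the mean of the mTEC-I and mTEC-IV means. All cells came from thymus of C57BL/6 mice, dissociated with collagenase, dispase and DNase, and every gate was CD45- Epcam+. mTEC-I cells were MHCII low and Itgb4+, mTEC-II cells were MHCII high, mTEC-III cells were Ly6D+, and mTEC-IV cells were MHCII low, Itgb4- and L1cam+. Each population had 2 libraries, all 8 of the series were used, and the labels do not say whether replicates came from separate animals or pools. P-values of the main peak and gene tests therefore reflect how far libraries of one population differed, possibly for technical reasons. They speak of these 4 populations. An SD with n = 4 is taken over the 4 libraries of a side and so includes the difference between its 2 populations. In bulk libraries fewer cells of a type and less accessibility per cell cannot be told apart. Single libraries are written by population and replicate, so that III-2 is mTEC-III replicate 2.

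Medullary thymic epithelial cells display self antigens to developing T cells. Maturing cells raise MHC class II and costimulatory molecules, and many come to express Aire, a nuclear protein that turns on genes otherwise restricted to other tissues. RANK (Tnfrsf11a) and CD40 on these cells signal through NF-kB, and that signal is needed for Aire-expressing cells to form. Cells that have passed the Aire stage include keratinised, Ly6D-positive cells. Tuft-like cells of the medulla depend on the transcription factor Pou2f3, and immature or Ccl21-producing mTEC carry Itgb4 and basal keratins.

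A peak was called higher or lower when its limma p-value, adjusted by Benjamini-Hochberg over all peaks tested, was below 0.05. The same rule was used for genes, whose value is the sum over the peaks that the authors assigned to the gene within 10 kb of its start. Values are TMM-scaled tags per 10000000 total tags, and differences are on the log2(value + 1) scale with their standard error (SE). A call of the mean difference can rest on one population, so a stricter class was counted as well: features called in the same direction in all 4 cross pairs (II against I, II against IV, III against I, III against IV), which share libraries and are not independent tests.

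Libraries held between 3606440 and 10374600 total tags. The share of tags in merged peaks was 8.44% to 17.8% in mTEC-II and mTEC-III (13.1% ± 4.22, SD, n = 4) and 14.2% to 19.7% in mTEC-I and mTEC-IV (17.9% ± 2.59, SD, n = 4). The sides overlapped, and the difference did not pass an exact two-sided permutation test (p = 0.114, adjusted p = 0.357 over 5 shares; the smallest p that 70 splits allow is 0.0286). The shares of peak tags in promoters (44.0% against 44.5%), introns (23.8% against 23.7%), intergenic peaks (26% against 25.6%) and CpG islands (4.88% against 5.19%) had adjusted p of 0.357 to 0.771. The test permutes single libraries, although the 4 of a side come from 2 populations, so its p covers these libraries only. The lowest shares of tags in merged peaks were those of the mTEC-III libraries (8.44% and 11%). With TMM the median difference of all tested genes was -0.08, and with the authors' scaling to total tags it was -0.50, and gene and list differences under the authors' scaling are to be read against that shift.

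The start regions of 4 genes described below are shown because a called peak lay there in each: Aire, the NF-kB inhibitor Nfkbia, the costimulatory ligand Cd80 and the MHC class II beta chain H2-Eb2. Each is the 250 bases 5′ of the start in RefSeq's GRCm38.p6, on the gene's strand, while the peaks are on mm9. Capitals mark letters that match, on either strand, one of the patterns searched: GGGA and CC with any 4 bases between them for the kappaB site that NF-kB dimers bind, TGANTCA for AP-1, ATTGG for the CCAAT box that NF-Y binds, and TATAAA for the TATA box.
Aire: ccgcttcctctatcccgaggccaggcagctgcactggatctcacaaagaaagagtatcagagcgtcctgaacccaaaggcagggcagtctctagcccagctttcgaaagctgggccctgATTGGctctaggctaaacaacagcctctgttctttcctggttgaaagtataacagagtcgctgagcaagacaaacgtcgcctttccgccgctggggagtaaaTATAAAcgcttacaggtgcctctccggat
Nfkbia: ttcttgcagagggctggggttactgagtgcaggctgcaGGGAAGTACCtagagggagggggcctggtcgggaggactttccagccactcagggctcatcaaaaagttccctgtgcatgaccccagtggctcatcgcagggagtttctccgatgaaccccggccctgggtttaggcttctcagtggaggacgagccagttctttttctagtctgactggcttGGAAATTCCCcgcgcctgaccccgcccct
Cd80: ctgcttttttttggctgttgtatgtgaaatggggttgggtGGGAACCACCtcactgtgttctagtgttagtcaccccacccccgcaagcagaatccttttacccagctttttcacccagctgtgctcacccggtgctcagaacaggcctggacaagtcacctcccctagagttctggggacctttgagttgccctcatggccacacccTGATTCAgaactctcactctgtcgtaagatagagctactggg
H2-Eb2: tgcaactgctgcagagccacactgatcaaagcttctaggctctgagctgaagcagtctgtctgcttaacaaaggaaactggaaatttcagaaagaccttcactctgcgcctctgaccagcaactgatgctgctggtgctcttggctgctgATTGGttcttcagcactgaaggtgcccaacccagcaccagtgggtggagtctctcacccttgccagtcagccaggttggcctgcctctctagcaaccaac
The Aire window holds ATTGG 131 bases and TATAAA 29 bases before the start. The windows were not cut to the called peaks. The Aire peak (mm9, chr10:77506225-77506387) is centred 49 bp downstream of the start, so most of the window, ATTGG included, lies outside it. Nfkbia holds GGGAAGTACC 212 bases and GGAAATTCCC 29 bases before its start, Cd80 holds GGGAACCACC at 210 bases and TGATTCA at 42 bases, and H2-Eb2 holds ATTGG at 100 bases. Such matches are common: of 32851 promoter windows in the RefSeq table, searched over the 250 bases before the start, 17.6% hold the kappaB pattern, 33.8% ATTGG, 6.75% the AP-1 pattern and 12.4% TATAAA. They describe the letters and are not evidence of binding. A comparison of these shares between called and uncalled promoters was void, because fewer than 80% of the called genes matched the table (77.2% of the higher and 76.7% of the lower).

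Of 58817 peaks tested, 6867 (11.7%) were more open in mTEC-II and mTEC-III and 4396 (7.47%) were less open, 19.1% together. The sides did not overlap at 3987 of the higher (6.78% of peaks) and 1442 of the lower ones (2.45%). In all 4 cross pairs 1209 peaks (2.06%) were higher and 117 (0.199%) were lower. The stricter higher peaks were nearly all away from promoters: 44 of 1209 (3.64%) lay within 1 kb of a start, against 47 of 117 (40.2%) of the stricter lower peaks. They were assigned to 1106 genes, had a median difference of 2.66, and 974 of them (80.6%) had been called as peaks by the authors in mTEC-II or mTEC-III libraries and in no mTEC-I or mTEC-IV library. The corresponding share of the stricter lower peaks, called in mTEC-I or mTEC-IV libraries alone, was 60.7% (71 of 117), with a median difference of -1.62. The authors' calls rest on the same reads that selected these peaks, so the shares of 80.6% and 60.7% are a description and not separate evidence.

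The mean difference is a blend of populations at many of the other peaks. Of the 6867 higher peaks, 5536 (80.6%) had both the mTEC-II and the mTEC-III mean above both other means, and 1882 (27.4%) were called in both populations against mTEC-I alone and 2453 (35.7%) against mTEC-IV alone. mTEC-I and mTEC-IV themselves differed at 3115 (45.4%) of these peaks and at 2356 (53.6%) of the lower peaks. Over all peaks, 12353 (21%) were above mTEC-IV in mTEC-I and 12079 (20.5%) below it, whereas mTEC-II and mTEC-III differed at 9 peaks: 1 was higher in mTEC-II (0.0017%) and 8 were lower (0.0136%). In the single pairs, the shares of peaks called higher and lower were 9.86% and 9.51% for II against I, 13.6% and 14.2% for II against IV, 12.4% and 10.6% for III against I, and 12.3% and 11.2% for III against IV. At an unadjusted p under 0.05, 10104 peaks (17.2%) were higher and 9481 (16.1%) lower by the mean difference. The plot of the difference from mTEC-I against that from mTEC-IV sets the stricter peaks apart in opposite corners.

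**Figure D1:**
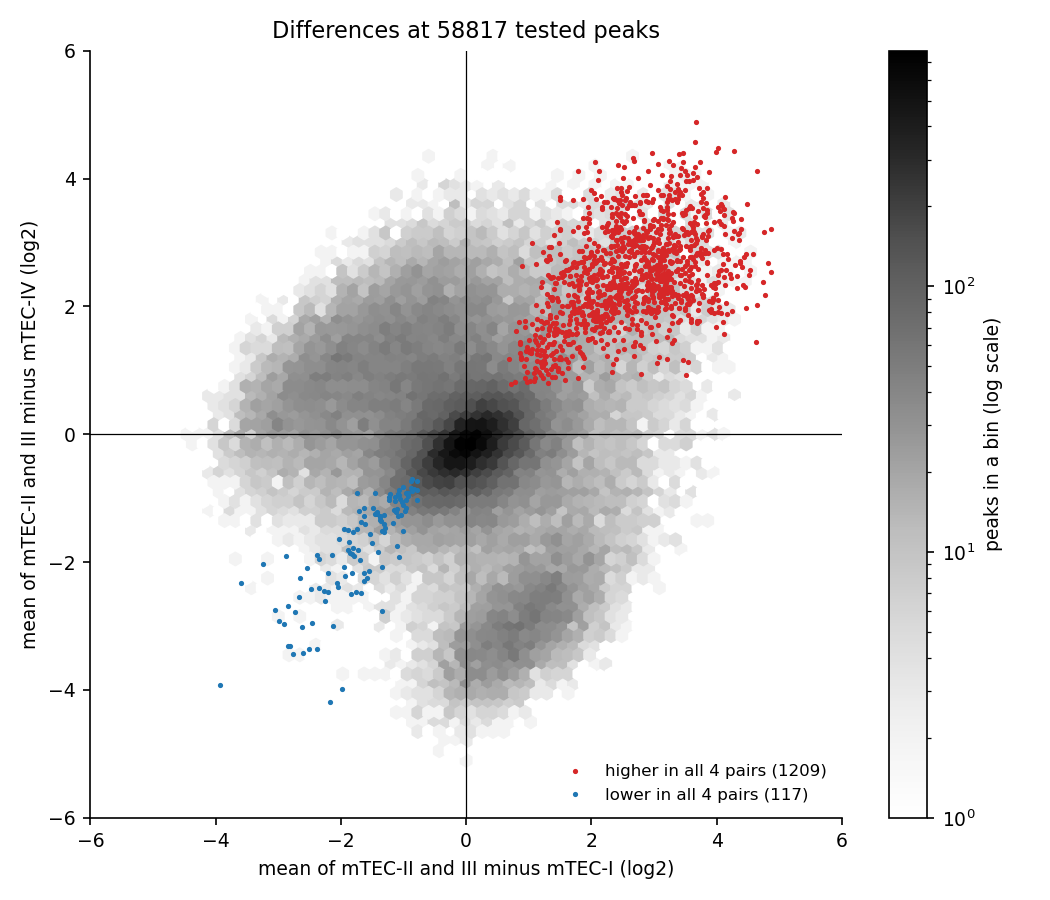
Each of 58817 tested peaks by the mean of mTEC-II and mTEC-III minus mTEC-I (horizontal, log2) and minus mTEC-IV (vertical, log2); grey bins count peaks on a log scale. The 1209 peaks higher in all 4 cross pairs (red) lie in the upper right, and the 117 lower in all 4 (blue) in the lower left.

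These counts depended on the scaling, the model and single libraries. With the authors' scaling 4030 peaks were higher and 13303 lower, and of the stricter peaks 1147 of 1209 higher and 116 of 117 lower were still called for the mean difference. Without 1 library the higher count was 4589 to 6705. The lower count was 1383 without I-1, 1264 without I-2, 1180 without IV-1, 1372 without IV-2 and 7087 without III-2. The stricter higher count was 579 without I-1, 568 without I-2, 714 without II-1, 653 without II-2, 723 without III-1, 532 without IV-1 and 703 without IV-2. The stricter lower count was 9 without I-1, 8 without I-2, 15 without IV-1, 23 without IV-2 and 207 without III-2. With the population as a random effect, which asks whether the sides differ beyond the spread between the 2 populations of a side, 15 peaks were higher and 0 lower.

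The largest rises with separate sides were distal peaks with little signal in mTEC-I and mTEC-IV. An intergenic peak on chromosome 6 (mm9, chr6:80780538-80780786), 811025 bp from the start of Lrrtm4, a synaptic adhesion gene, had 58.8 and 51.5 tags in mTEC-II and 55 and 43.8 tags in mTEC-III, against 7.51 and 4.34 in mTEC-I and 2.91 and 3.7 in mTEC-IV. The 4 libraries of mTEC-II and mTEC-III lay above the others, at least 43.8 against at most 7.51, with a difference of 3.30 ± 0.289 (SE, adjusted p = 1.55e-05). An intergenic peak 330973 bp from Dcdc2c (chr12:28902086-28902373) had 72.6 and 66.1 tags in mTEC-II and 61.7 and 55 tags in mTEC-III, against 3.09 and 5.96 in mTEC-I and 10.2 and 5.29 in mTEC-IV, a difference of 3.27 ± 0.278 (SE, adjusted p = 1.50e-05). A peak in intron 3 of Micall1, an adaptor of endosomal recycling (chr15:78949651-78949943), rose by 3.10 ± 0.264 (SE, adjusted p = 1.50e-05). These 3 were the named peaks that kept their call with the population as a random effect (adjusted p = 0.0345, 0.0241 and 0.0241). The other 3 peaks of the largest 6 rises lay near Gm10845 (3.20), Pmaip1 (3.04) and Plk3 (3.03), and the first and the last of these were annotated as MTD, a mouse long terminal repeat (LTR). All 6 except the Gm10845 peak were higher in all 4 cross pairs.

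Among falls, a peak at -17751 bp from the start of Lgals9, which encodes galectin-9 (chr11:78816051-78816304), had 6.92 and 11.5 tags in mTEC-II and 4.99 and 21.4 tags in mTEC-III, against 91.5 and 65.6 in mTEC-I and 42.8 and 36 in mTEC-IV. The sides did not overlap, with a difference of -2.39 ± 0.337 (SE, adjusted p = 0.000218). A peak in intron 2 of Ankrd44 (chr1:54883510-54883767) differed by -2.15 ± 0.3 (SE, adjusted p = 0.000202). The other 4 of the 6 largest falls were intergenic peaks near Otud4 (-2.34), 4732490B19Rik (-2.08), Qk (-2.08) and Setd4 (-2.06), and all 6 were lower in all 4 cross pairs.

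Higher peaks made up a smaller share near starts than away from them, and the share of lower peaks was much the same. Within 1 kb of a start 490 of 16074 peaks (3.05%) were higher and 1156 (7.19%) lower, while beyond 1 kb 6377 of 42743 (14.9%) were higher and 3240 (7.58%) lower. The share of higher peaks was level from 1 kb outwards, at 14.5% between 1 and 10 kb and 15.0% beyond 100 kb, and the share of lower peaks rose to 11.7% beyond 100 kb. CpG islands held 37 higher peaks (1.64%) and 167 lower (7.40%) of 2257. The balance within 1 kb depended on the scaling: TMM factors from promoter peaks gave 899 higher and 679 lower there and 76 and 86 in CpG islands, and the authors' scaling 150 and 4690 within 1 kb. Beyond 1 kb the counts were 7271 and 2343 with the former and 3821 and 7945 with the latter. Peaks near starts were also stronger (median log2 value 5.19 against 3.36 beyond 1 kb), and the part of signal strength in these shares was not tested.

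Peaks in LTR and LINE elements held more higher calls than the 11.7% of all peaks and the 14.9% of peaks beyond 1 kb, and those in SINE elements were near the second share. Of 2082 peaks in LTR elements, the promoters and enhancers of endogenous retroviruses and related transposons, 544 (26.1%) were higher and 134 (6.44%) lower, and 120 (5.76%) were higher in all 4 cross pairs. In LINE elements 285 of 1280 (22.3%) were higher and 157 (12.3%) lower. In SINE elements 212 of 1266 (16.7%) were higher and 84 (6.64%) lower. The authors' scaling gave 389 higher and 316 lower LTR peaks and turned the balance to 197 and 284 in LINE and 121 and 197 in SINE elements.

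In the LTR family RMER4B 45 of 54 peaks (83.3%) were higher, 0 were lower and 21 (38.9%) were higher in all 4 cross pairs. Its median peak held 21.9 and 25.7 tags in mTEC-II and 20 and 15.3 tags in mTEC-III, against 6.19 and 5.15 in mTEC-I, and 1.45 and 2.64 in mTEC-IV. The median difference was 2.21, against -0.06 over all peaks tested. The 54 copies lay on 17 chromosomes and were each assigned to another gene. Of the 54, 39 were still higher with the authors' scaling, and with the population as a random effect 0 were. Of the other LTR families with at least 25 tested peaks, RLTR14 had 26 higher and 0 lower of 38, RLTR23 30 and 3 of 61, MTD 57 and 6 of 121, and RMER15 19 and 1 of 42, whereas LTR41 had 0 higher and 1 lower of 30. At RLTR14 mTEC-I was close to mTEC-II and mTEC-III and mTEC-IV was low: the median peak held 11.5 and 12.7 tags in mTEC-I and 2.54 and 2.91 in mTEC-IV, against 13.2 to 21.1 in mTEC-II and mTEC-III. At RLTR23 mTEC-I was on the level of mTEC-II and mTEC-III, and mTEC-IV alone was low. Its median peak held 15.9 and 17.3 tags in mTEC-I, 11.5 to 17.7 in mTEC-II and mTEC-III, and 2.18 and 3.17 in mTEC-IV.

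Most peaks annotated as tRNA rose, and many of those annotated as rRNA repeats fell. Of 36 tRNA peaks, 25 (69.4%) were higher and 0 lower. The median tRNA peak held 40.3 and 36.9 tags in mTEC-II and 35 and 31.6 tags in mTEC-III, against 19.5 and 18.7 in mTEC-I, and 12 and 15.6 in mTEC-IV. All 4 libraries of mTEC-II and mTEC-III thus lay above the other 4, with a median difference of 1.01. Of these peaks 17 lay on chromosome 13, of which 13 were higher, and 12 of the peaks elsewhere were higher. Of 69 rRNA repeat peaks 0 were higher and 32 (46.4%) lower. The authors' scaling left 11 tRNA peaks higher and 0 lower. How reads that map to several copies of a repeat were placed is not given in the sources used here, and its part in these counts was not tested.

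**Figure D2:**
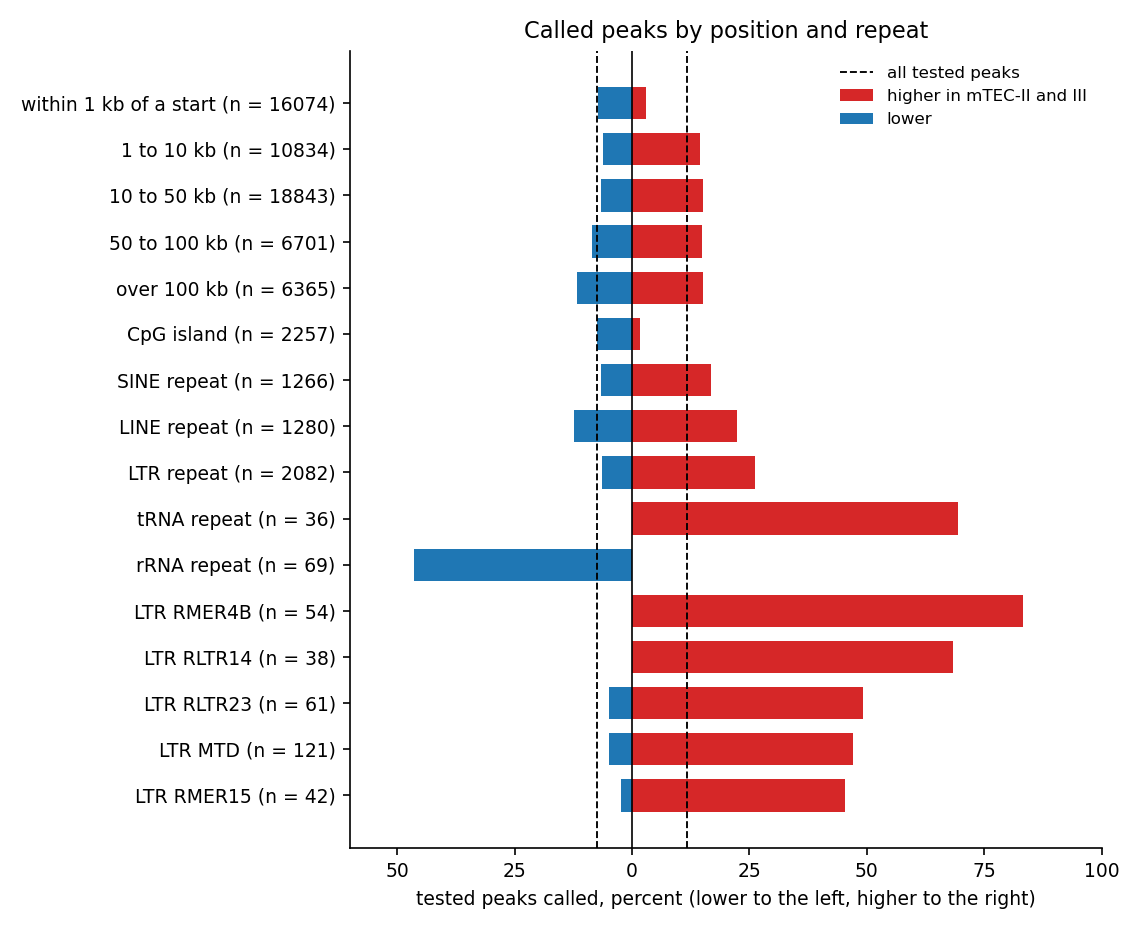
Share of tested peaks called higher (right, red) or lower (left, blue) in mTEC-II and mTEC-III, in percent, by distance to the start and by repeat annotation; dashed lines mark all tested peaks (11.7% and 7.47%). RMER4B (83.3%) and tRNA repeats (69.4%) extend far to the right, rRNA repeats (46.4%) to the left, and peaks within 1 kb of a start stay at 3.05% higher.

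At the gene level, 914 of 15034 genes tested (6.08%) were higher and 1321 (8.79%) lower, 14.9% together, with median differences of 0.89 and -0.73. The sides did not overlap at 478 of the higher (3.18% of genes) and 706 of the lower ones (4.7%). In all 4 cross pairs 89 genes (0.592%) were higher and 54 (0.359%) lower. In the single pairs, the shares of genes called higher and lower were 6.5% and 5.71% for II against I, 5% and 8.25% for II against IV, 7.35% and 8.49% for III against I, and 3.9% and 8.17% for III against IV, and 8.66% were above and 13.6% below mTEC-IV in mTEC-I. At an unadjusted p under 0.05 1643 genes (10.9%) were higher and 2774 (18.5%) lower. The count of higher genes was 570 without I-1, 544 without I-2, 527 without IV-1 and 610 without IV-2. The count of lower genes was 564 without I-1, 501 without I-2, 470 without IV-1, 656 without IV-2 and 2135 without III-2. The authors' scaling gave 329 higher and 5976 lower genes, and with the population as a random effect 22 and 7.

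Among well-covered genes (mean log2 value of at least 4) with separate sides, the largest rises began with Zp2. Zp2, an egg coat glycoprotein of the oocyte, had 69.1 and 57.6 tags in mTEC-II and 63.3 and 78.4 tags in mTEC-III, against 6.63 and 7.05 in mTEC-I and 7.98 and 15.9 in mTEC-IV. It rose by 2.79 ± 0.259 (SE, adjusted p = 3.70e-06). Slamf6, a receptor of T, B and natural killer cells, had 71.4 and 61.4 tags in mTEC-II and 35 and 40.7 tags in mTEC-III, against 3.97 and 7.59 in mTEC-I and 10.2 and 7.93 in mTEC-IV, a rise of 2.66 ± 0.281 (SE, adjusted p = 1.38e-05). Isx, a homeobox factor of the intestine, rose by 2.41 ± 0.293 (SE, adjusted p = 4.65e-05) to 39 ± 3.89 tags (SD, n = 4) against 6.96 ± 3.24. For all 3 the 4 libraries of mTEC-II and mTEC-III were above the other 4, and all 4 cross pairs were called. The same holds for 4 more genes. Lsp1, an actin-binding protein of leukocytes, rose by 2.64 ± 0.271 (SE, adjusted p = 9.15e-06), and Klrg1, a receptor of natural killer and T cells, by 2.05 ± 0.261 (SE, adjusted p = 5.93e-05). Itih1, a plasma protein of the liver, rose by 2.57 ± 0.365 (SE, adjusted p = 0.000154), and Pla2g3, a secreted phospholipase, by 2.50 ± 0.3 (SE, adjusted p = 4.24e-05). The remaining 3 of the 10 were Cmah (2.42), which makes a sialic acid, Aim1l (2.30) and the imprinted gene Snrpn (2.09), which were not called in every cross pair. Zp2, Slamf6, Lsp1, Pla2g3 and Isx kept their call with the population as a random effect (adjusted p = 0.0126, 0.0350, 0.0277, 0.0354 and 0.0485).

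By the same rule, the largest falls began with Sparc. Sparc, a matrix glycoprotein, had 4.6 and 15.4 tags in mTEC-II and 10 and 10.2 tags in mTEC-III, against 82.6 and 45 in mTEC-I and 32.7 and 22.7 in mTEC-IV. The means were 10 ± 4.39 tags (SD, n = 4) against 45.8 ± 26.2, a difference of -2.02 ± 0.331 (SE, adjusted p = 0.000491). Its values were highest in mTEC-I, and the 4 libraries of mTEC-II and mTEC-III were the lowest 4. Nrxn3, a presynaptic adhesion gene, had 8.07 and 17.7 tags in mTEC-II and 8.33 and 33.6 tags in mTEC-III, against 50.4 and 55.3 in mTEC-I and 68.3 and 68.8 in mTEC-IV, a difference of -2.0 ± 0.324 (SE, adjusted p = 0.000449), and was lower in all 4 cross pairs. Adgrl3, an adhesion receptor of the latrophilin family, differed by -1.67 ± 0.248 (SE, adjusted p = 0.000238) and Sox7, a transcription factor of endothelium, by -1.78 ± 0.238 (SE, adjusted p = 8.64e-05). Further falls by the same rule were those of Glb1l2 (-1.75), Lamb3 (-1.72), Il25 (-1.68), Tex33 (-1.63) and Cnr1 (-1.59), the call of Cnr1 being lost without I-2, II-1 or IV-1.

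Of the genes behind the gates, H2-Ab1 and H2-Aa were higher and the others were not called. H2-Ab1, an MHC class II beta chain, had 315 and 278 tags in mTEC-II and 330.0 and 269 tags in mTEC-III, against 237 and 217 in mTEC-I and 142 and 133 in mTEC-IV. mTEC-I lay between the high mTEC-II and mTEC-III and the low mTEC-IV, the sides did not overlap, and the difference was 0.75 ± 0.099 (SE, adjusted p = 8.14e-05). H2-Aa, the matching alpha chain, differed by 0.58 ± 0.098 (SE, adjusted p = 0.000583). Neither was called against mTEC-I in the separate pairs. Itgb4 (-0.40 ± 0.175, SE, adjusted p = 0.129), L1cam (-0.86 ± 0.501, SE, adjusted p = 0.264), Ly6d (-0.08 ± 0.201, SE, adjusted p = 0.821) and Epcam (0.01 ± 0.114, SE, adjusted p = 0.983) were not called. L1cam nevertheless had 11.6 and 12.7 tags in mTEC-IV, against 1.16 to 3.34 in the other libraries. In the separate limma pairs it was below mTEC-IV in mTEC-II (adjusted p = 0.0495) and not called in mTEC-III (adjusted p = 0.130). Ptprc, which encodes CD45, and Ccl21a, the chemokine of one mTEC subset, had no merged peak within 10 kb.

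Genes of the mature, Aire-expressing stage were more often higher than lower. Of 14 measured genes of this list (of 16), 10 were higher (Aire, Fezf2, Cd80, Cd86, Cd40, Pdcd1lg2, Cd83, Ccl17, Tnfrsf11a and Tnfrsf11b), 0 lower and 4 not called, with a median difference of 0.63 against -0.08 over all genes. Over all genes 6.08% were higher and 8.79% lower. None of the list was called in all 4 cross pairs. Summed over the list, the 4 libraries of mTEC-II and mTEC-III held 768 to 1017 tags and the others 644 to 741. With the authors' scaling 1 gene was higher and 3 lower, and the list's median was 0.20, against -0.50 over all genes. Ccl22 and Xcl1 had no peak within 10 kb.

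Aire itself had 78.4 and 64.5 tags in mTEC-II and 36.7 and 53 tags in mTEC-III, against 19.9 and 20.6 in mTEC-I and 37 and 33.3 in mTEC-IV. The difference was 1.04 ± 0.2 (SE, adjusted p = 0.00178), but the sides overlapped, since III-1 lay between the libraries of mTEC-IV. In the separate pairs mTEC-II was above mTEC-I (1.76) and mTEC-IV (1.0) and mTEC-III above mTEC-I (1.09), and mTEC-III against mTEC-IV was not called (0.32, adjusted p = 0.486). mTEC-II minus mTEC-III was 0.68 and not called (adjusted p = 0.342). Both peaks assigned to Aire were higher, the one at the start by 0.86 ± 0.196 (SE, adjusted p = 0.00613) and one 2743 bp upstream by 2.20 ± 0.5 (SE, adjusted p = 0.00602).

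The other genes of the stage differed in which population was low. Fezf2, a second regulator of tissue antigens, had 46.1 and 67.6 tags in mTEC-II and 46.7 and 57 tags in mTEC-III, against 36.7 and 36.9 in mTEC-I and 32 and 25.4 in mTEC-IV. The sides did not overlap (0.71 ± 0.197, SE, adjusted p = 0.0193), but the call was lost without I-1, I-2, II-2 or IV-2. Cd80, a ligand of CD28, had 59.9 and 49.9 tags in mTEC-II and 35 and 31.6 tags in mTEC-III, against 26.1 and 19 in mTEC-I and 33.4 and 32.3 in mTEC-IV, with mTEC-III at the level of mTEC-IV. Its difference of 0.64 ± 0.21 (SE, adjusted p = 0.0458) was lost without any 1 library other than III-2. The peak at its start (-86 bp), in the window shown above, had 47.2 and 36.1 tags in mTEC-II and 28.3 and 21.4 tags in mTEC-III, against 22.1 and 18.4 in mTEC-I and 12.3 and 15.9 in mTEC-IV, a difference of 0.89 ± 0.236 (SE, adjusted p = 0.0154) that was lost without I-2, II-1 or IV-1. Cd86, the second CD28 ligand, was low throughout, at 2.30 to 15.4 tags in mTEC-II and mTEC-III and 0 to 2.17 in the others (2.49 ± 0.643, SE, adjusted p = 0.0127), a call lost without I-1, IV-1 or IV-2. Pdcd1lg2, the PD-1 ligand PD-L2, had mTEC-I on the level of mTEC-II and mTEC-III, with 99.1 and 106 tags in mTEC-II and 81.7 and 74.3 tags in mTEC-III, against 116 and 93.2 in mTEC-I and 24 and 20.1 in mTEC-IV. Its mean difference of 0.88 ± 0.152 (SE, adjusted p = 0.000738) became -0.22 against mTEC-I alone. Cd83, a surface protein of mature antigen-presenting cells, had 111 and 117 tags in mTEC-II and 75 and 115 tags in mTEC-III, against 46 and 47.7 in mTEC-I and 92.2 and 95.7 in mTEC-IV. Here mTEC-I was the low population (0.62 ± 0.147, SE, adjusted p = 0.00761).

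**Figure D3:**
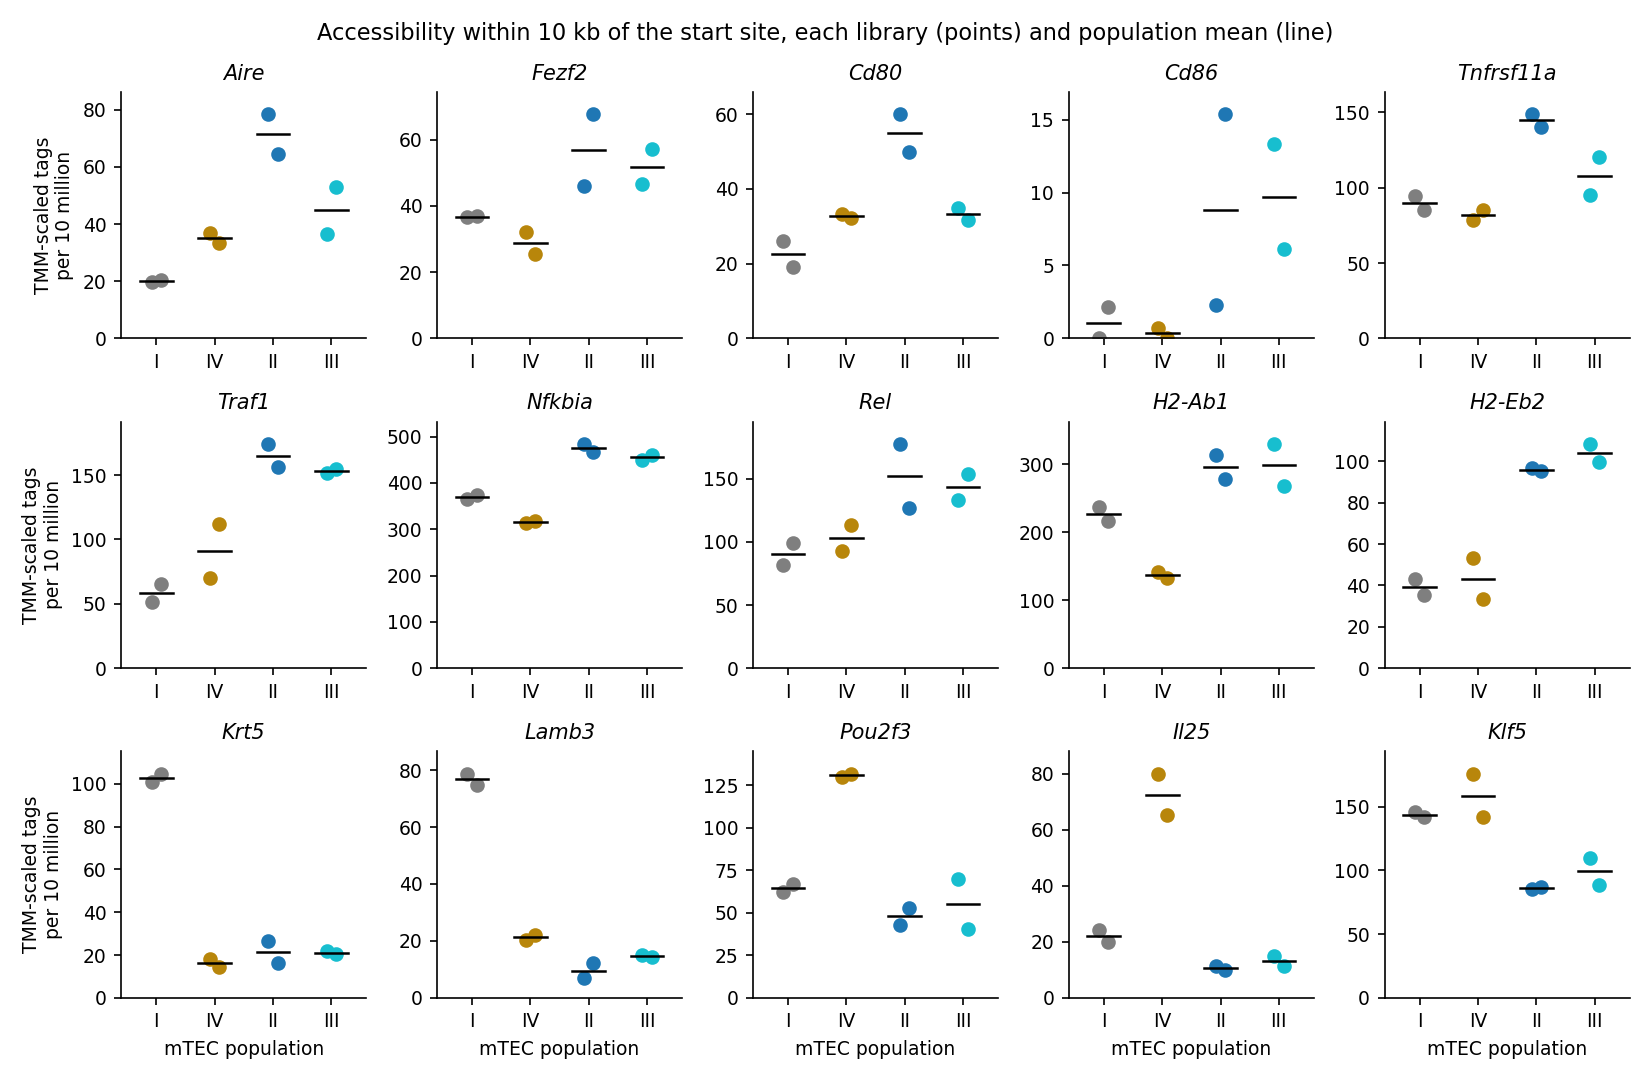
TMM-scaled tags per 10000000 within 10 kb of the start for 15 genes (points, libraries; lines, means of 2 libraries), populations on the horizontal axis. Fezf2, Cd86, Tnfrsf11a, Traf1, Nfkbia, H2-Ab1 and H2-Eb2 are above mTEC-I and mTEC-IV in all 4 libraries of mTEC-II and mTEC-III, Aire is highest in mTEC-II (78.4 and 64.5), Krt5 is high in mTEC-I alone (101 and 105), Pou2f3 in mTEC-IV (130.0 and 132), and Klf5 is low in mTEC-II and mTEC-III (85.3 to 110.0).

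Called genes of MHC class II presentation were higher by the mean difference, other than Ctsl. Of 16 genes measured, 9 were higher (H2-Aa, H2-Ab1, H2-Eb1, H2-Eb2, H2-DMb2, H2-Oa, Cd74, Ciita and Rfx5), 1 lower (Ctsl) and 6 not called, with a median difference of 0.41 against -0.08 over all genes. Over all genes 6.08% were higher and 8.79% lower. In mTEC-III, which was not gated on MHCII, H2-Aa (adjusted p = 0.244), H2-Ab1 (adjusted p = 0.0640) and H2-Oa (adjusted p = 0.189) were not called against mTEC-I. Ctsl, a lysosomal protease, differed by -0.71 ± 0.197 (SE, adjusted p = 0.0193), lost without I-2, II-2, IV-1 or IV-2. H2-Eb2, a beta chain gene of the class II region, had 96.8 and 95.2 tags in mTEC-II and 108 and 99.8 tags in mTEC-III, against 43.3 and 35.2 in mTEC-I and 53 and 33.3 in mTEC-IV. The lowest of the 4 mTEC-II and mTEC-III libraries was at 95.2 and the highest of the others at 53.0, and the difference was 1.28 ± 0.168 (SE, adjusted p = 7.35e-05). All 4 cross pairs were called, and it was the one gene of the 21 lists that kept its call with the population as a random effect (adjusted p = 0.0480). Both of its peaks were called in all 4 pairs: the one at the start, whose sequence is shown above (1.02 ± 0.182, SE, adjusted p = 0.00110), and one in an intron (2.50 ± 0.422, SE, adjusted p = 0.000779).

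H2-Eb1 was also called in all 4 pairs (0.54 ± 0.0878, SE, adjusted p = 0.000446), with 492 and 436 tags in mTEC-II and 398 and 418 tags in mTEC-III, against 305 and 303 in mTEC-I and 322 and 265 in mTEC-IV. H2-Oa, a chain of the peptide-exchange modulator, rose by 1.25 ± 0.306 (SE, adjusted p = 0.00930), lost without I-2 or IV-1, and Cd74, the invariant chain, by 0.45 ± 0.112 (SE, adjusted p = 0.0103). Ciita, the class II transactivator, had 61.1 and 70.7 tags in mTEC-II and 83.3 and 36.7 tags in mTEC-III, against 84.4 and 64 in mTEC-I and 16.7 and 21.2 in mTEC-IV, so that mTEC-I was on the level of mTEC-II and mTEC-III and mTEC-IV was low. Its difference was 0.67 ± 0.223 (SE, adjusted p = 0.0467), and -0.28 against mTEC-I alone. H2-DMa (-0.02 ± 0.317, SE, adjusted p = 0.976) and H2-DMb1 (-0.24 ± 0.17, SE, adjusted p = 0.375) were not called. Under the authors' scaling 2 genes of the list were higher and 2 lower and the list's median was -0.01, against -0.50 over all genes.

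Dendritic cells also carry open class II, Cd80 and Cd86 genes, so their markers were read beside these lists. Of 12 myeloid and dendritic markers 8 had no merged peak within 10 kb under the symbols listed, among them Itgax, Csf1r, Xcr1, Clec9a, Siglech and Lyz2. Of the 4 measured, Itgam (2.12 ± 0.545, SE, adjusted p = 0.0126), Cd68 (1.42 ± 0.437, SE, adjusted p = 0.0334) and Flt3 (1.14 ± 0.308, SE, adjusted p = 0.0167) were higher, 0 were lower and Zbtb46 was not called. These calls were lost without I-1 or IV-1 for Itgam, without I-1, II-1, II-2, III-1, IV-1 or IV-2 for Cd68 and without I-1, II-1, IV-1 or IV-2 for Flt3, and none of the 3 was called against mTEC-IV in the separate pairs. Summed over these 3 and Zbtb46, the values ranged from 125.0 to 190 in mTEC-II and mTEC-III and from 94.1 to 133 in mTEC-I and mTEC-IV. Itgam held 4.61 to 17.7 tags in mTEC-II and mTEC-III. The median difference of the 4 measured genes was 1.28, against -0.08 over all genes. Over all genes 6.08% were higher and 8.79% lower. The part of such cells in the class II and Aire-stage differences was not tested.

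Most NF-kB genes were not called, and those called were higher. Of 22 pathway genes measured, 7 were higher, 0 lower and 15 not called (all genes, 6.08% higher and 8.79% lower), with a median of 0.18, and the summed list held 3495 to 3729 tags in mTEC-II and mTEC-III against 2945 to 3217 in the others. Of 8 receptors measured (of 9), Tnfrsf11a, Cd40 and Tnfrsf9 were higher, 0 lower and 5 not called, with a median of 0.12 that was -0.02 against mTEC-I alone. With the authors' scaling 1 pathway gene was higher and 3 lower, and the list's median turned to -0.23, against -0.50 over all genes.

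Of the receptors, RANK (Tnfrsf11a) had 149 and 141 tags in mTEC-II and 95 and 120.2 tags in mTEC-III, against 94.6 and 85.1 in mTEC-I and 78.4 and 85.1 in mTEC-IV. All 4 libraries of mTEC-II and mTEC-III lay above the others, narrowly so for mTEC-III replicate 1, and the difference was 0.53 ± 0.126 (SE, adjusted p = 0.00768), lost without I-2. The peak at its start was not called (0.16 ± 0.167, SE, adjusted p = 0.535). Of its 17 tested peaks 6 were higher and 1 lower (all peaks, 11.7% and 7.47%). The largest lay 32134 bp upstream, in an intron of a neighbouring gene (chr1:107645085-107645248), with 32.3 and 36.1 tags in mTEC-II and 30 and 30.5 tags in mTEC-III, against 0.44 and 0.541 in mTEC-I and 9.44 and 5.82 in mTEC-IV. It was almost closed in mTEC-I and differed by 3.22 ± 0.357 (SE, adjusted p = 6.00e-05). A peak 4088 bp from the start had 39.2 and 51.5 tags in mTEC-II and 25 and 25.5 tags in mTEC-III, against 8.84 and 2.71 in mTEC-I and 6.54 and 5.29 in mTEC-IV, a difference of 2.43 ± 0.343 (SE, adjusted p = 0.000220), and both were higher in all 4 pairs. Tnfrsf9, the receptor 4-1BB, differed by 1.78 ± 0.433 (SE, adjusted p = 0.00889), lost without I-1, II-1 or IV-1. Tnfrsf11b, the decoy receptor osteoprotegerin, had 36.9 and 31.5 tags in mTEC-II and 55 and 48.9 tags in mTEC-III, against 20.8 and 22.8 in mTEC-I and 16.7 and 30.1 in mTEC-IV. Its difference of 0.90 ± 0.233 (SE, adjusted p = 0.0134) was lost without I-1 or IV-1. Cd40 had 65.7 and 74.5 tags in mTEC-II and 63.3 and 84.5 tags in mTEC-III, against 62.3 and 77.5 in mTEC-I and 38.5 and 34.9 in mTEC-IV, with mTEC-I at the level of mTEC-II, and its difference (0.49 ± 0.163, SE, adjusted p = 0.0472) was lost without any 1 library other than III-1.

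Of the adaptors, Traf1, itself a textbook NF-kB target, had 174 and 156 tags in mTEC-II and 152 and 155 tags in mTEC-III, against 51.3 and 65.1 in mTEC-I and 69.7 and 112 in mTEC-IV. The lowest mTEC-II or mTEC-III library was at 152 and the highest of the others at 112, the difference was 1.14 ± 0.145 (SE, adjusted p = 5.55e-05), and all 4 pairs were called. Of its 9 tested peaks 6 were higher and 0 lower (all peaks, 11.7% and 7.47%). An intron peak 3555 bp downstream of the start was higher in all 4 pairs (1.92 ± 0.253, SE, adjusted p = 0.000140), while the peak at the start was not called (0.35 ± 0.284, SE, adjusted p = 0.421). Traf6 rose by 0.70 ± 0.168 (SE, adjusted p = 0.00817), lost without I-2 or IV-2, and the kinase gene Ikbkb by 0.49 ± 0.134 (SE, adjusted p = 0.0177).

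Of the subunits and inhibitors, Rel rose by 0.60 ± 0.134 (SE, adjusted p = 0.00515), Relb by 0.43 ± 0.0965 (SE, adjusted p = 0.00521) and Nfkbie by 0.59 ± 0.117 (SE, adjusted p = 0.00217), and Nfkb2 was not called (0.11 ± 0.0968, SE, adjusted p = 0.496). Nfkbia, which encodes the inhibitor I-kappa-B alpha and is switched on by NF-kB, had 484 and 467 tags in mTEC-II and 450.0 and 460.3 tags in mTEC-III, against 365 and 373 in mTEC-I and 314 and 318 in mTEC-IV. The sides did not overlap and the difference was 0.44 ± 0.0777 (SE, adjusted p = 0.000817). Of 17 peaks assigned to Nfkbia 8 were higher and 1 lower (all peaks, 11.7% and 7.47%), among the most for any gene. They included the peak at the start, 6 bp from it (0.50 ± 0.12, SE, adjusted p = 0.00904), and 3 peaks higher in all 4 pairs, 13470 bp upstream (1.52 ± 0.287, SE, adjusted p = 0.00172), 5311 bp upstream (0.75 ± 0.173, SE, adjusted p = 0.00666) and 27102 bp downstream (1.63 ± 0.314, SE, adjusted p = 0.00195). The same number of higher peaks, 8, was assigned to Irf8, Tle3, Med13l, Micall2 and 2310008N11Rik.

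Irf8 is a transcription factor of myeloid and B cells that was also listed with the Aire regulators. Of its 17 peaks 8 were higher and 0 lower (all peaks, 11.7% and 7.47%). One 70400 bp from its start (chr8:123332844-123333035) had 32.3 and 37.6 tags in mTEC-II and 28.3 and 23.4 tags in mTEC-III, against 4.86 and 7.05 in mTEC-I and 0.724 and 3.17 in mTEC-IV. It was higher in all 4 pairs, by 2.85 ± 0.378 (SE, adjusted p = 0.000147). Near the start Irf8 differed by 0.50 ± 0.154 (SE, adjusted p = 0.0332), a call lost without I-1, I-2, II-2, III-1 or IV-1. Of 17 measured Aire partners and regulators, Irf8 and the deacetylase Sirt1 (0.55 ± 0.119, SE, adjusted p = 0.00437) were higher, 0 lower and 15 not called, with a median of 0.01. Over all genes 6.08% were higher and 8.79% lower. Under the authors' scaling 0 of the 17 were higher and 4 lower.

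**Figure D4:**
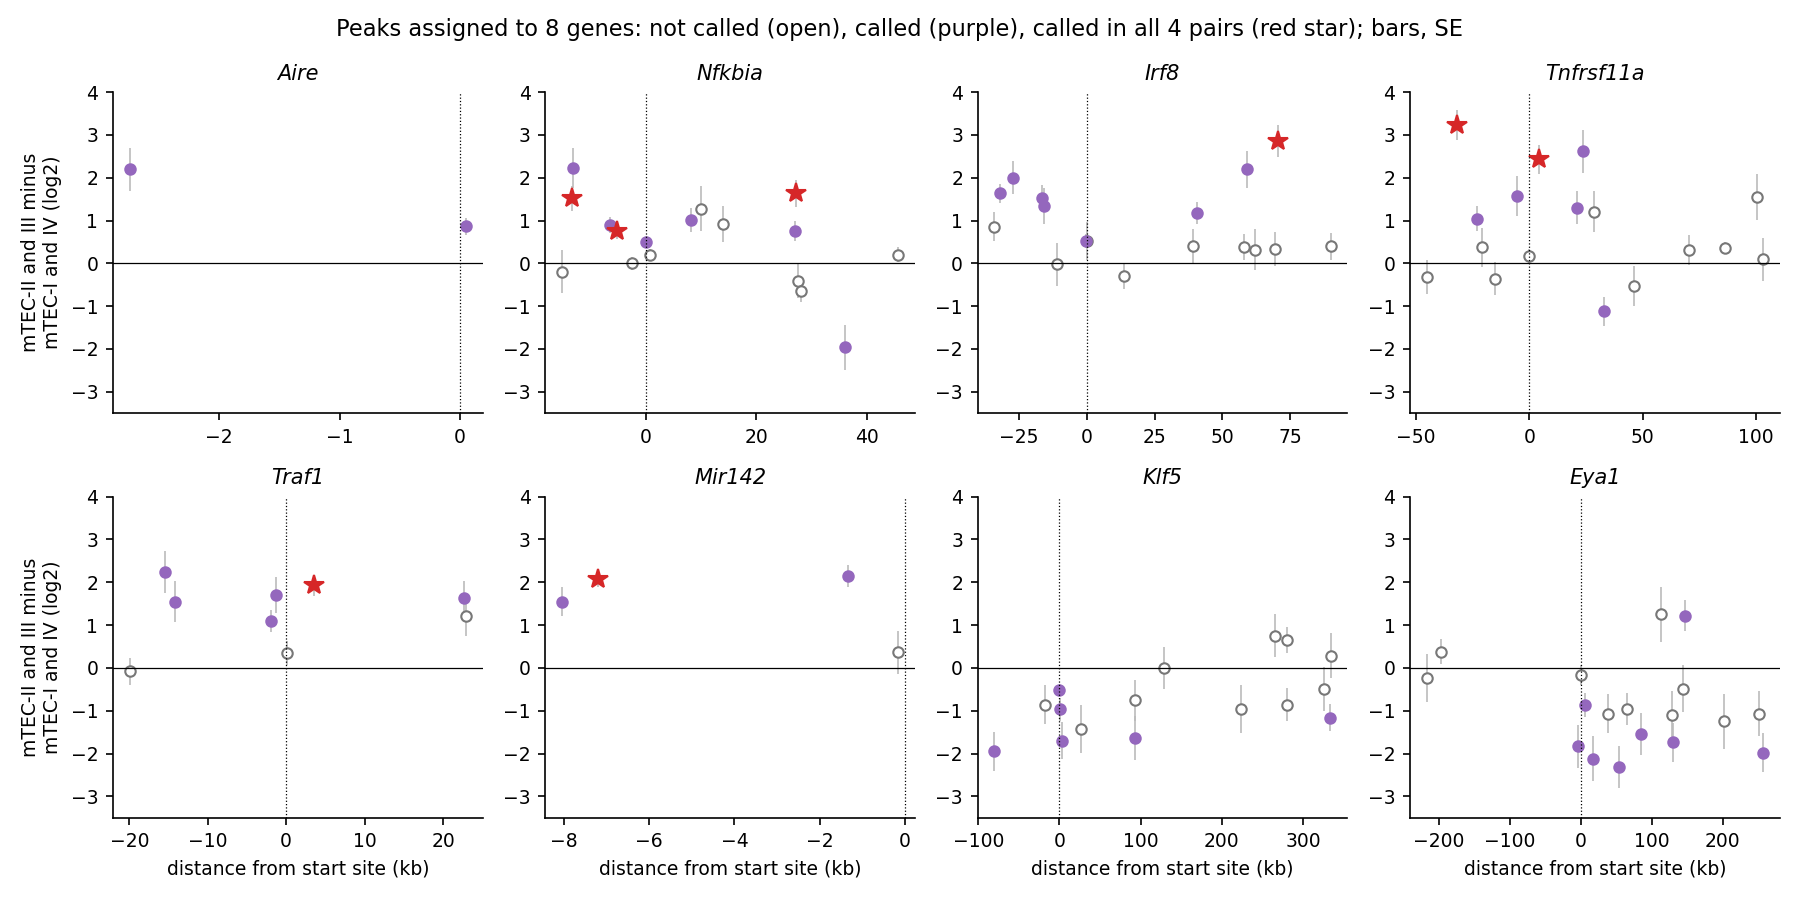
Difference between mTEC-II and mTEC-III and the other 2 populations (log2, bars SE) at every tested peak assigned to 8 genes, by distance from the start in kb; open circles were not called, purple were called, red stars were called in all 4 pairs. Higher peaks lie on both sides of Nfkbia (8 of 17), Irf8 (8 of 17), Tnfrsf11a (6 of 17) and Traf1 (6 of 9), and Klf5 (6 of 16) and Eya1 (7 of 18) carry lower ones, some of them open mainly in mTEC-IV. Over all tested peaks 11.7% were higher and 7.47% lower.

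Tissue antigen genes were mostly without a peak or not called. Of 29 genes 14 had no merged peak within 10 kb, among them Ins2, Alb, Ttr and Mup4. Of 13 tested, Atp4a and S100a8 were higher, 0 lower and 11 not called (all genes, 6.08% higher and 8.79% lower). The median was 0.22. Atp4a, the stomach proton pump, had 97.9 and 98.3 tags in mTEC-II and 99.99 and 60.1 tags in mTEC-III, against 34 and 32 in mTEC-I and 45.8 and 42.3 in mTEC-IV. Its difference was 1.17 ± 0.175 (SE, adjusted p = 0.000244) and all 4 pairs were called. S100a8, a calprotectin chain of neutrophils and keratinocytes, had 16.1 and 24.6 tags in mTEC-II and 18.3 and 25.5 tags in mTEC-III, against 2.21 and 3.26 in mTEC-I and 5.8 and 7.41 in mTEC-IV, a difference of 2.04 ± 0.363 (SE, adjusted p = 0.000918) and no overlap between the sides.

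Some genes of cornified and basal epithelium were lower, and most were not called. Over all genes 6.08% were higher and 8.79% lower. Of 16 cornified genes 0 were higher, 5 lower (Krtdap, Lor, Calm4, Calml3 and Dsc1) and 11 not called, with a median of -0.34. None of the 16 was higher in mTEC-II and mTEC-III although mTEC-III was gated on Ly6D, a protein of keratinocytes. Lor, loricrin of the cornified envelope, had 10.4 and 13.8 tags in mTEC-II and 13.3 and 11.2 tags in mTEC-III, against 27.8 and 19.5 in mTEC-I and 28.3 and 34.4 in mTEC-IV, a difference of -1.10 ± 0.281 (SE, adjusted p = 0.0125) that was lost without I-1 or IV-2. Calm4 and Dsc1 were not called in mTEC-III against either population. Of 13 basal and adhesion genes 1 was higher, 5 lower and 7 not called, with a median of -0.35. Against mTEC-IV alone 2 of the 13 were higher and 0 lower, and the median was 0.0031. Krt5 had 26.5 and 16.1 tags in mTEC-II and 21.7 and 20.4 tags in mTEC-III, against 101 and 105 in mTEC-I and 18.2 and 14.3 in mTEC-IV, and Lamb3, a chain of laminin-332, had 6.92 and 12.3 tags in mTEC-II and 15 and 14.2 tags in mTEC-III, against 78.7 and 74.8 in mTEC-I and 20.3 and 22.2 in mTEC-IV. Their differences, -0.95 ± 0.233 (SE, adjusted p = 0.00958) and -1.72 ± 0.262 (SE, adjusted p = 0.000294), were largest against mTEC-I, and Krt5 was 0.35 against mTEC-IV alone. The call of Krt5 was lost without I-1, I-2 or IV-1. Krt14, the partner keratin of Krt5, was higher (0.73 ± 0.153, SE, adjusted p = 0.00344) with a low mTEC-IV. It had 76 and 108 tags in mTEC-II and 107 and 90.6 tags in mTEC-III, against 98.6 and 118 in mTEC-I and 29.8 and 29.1 in mTEC-IV. Against mTEC-I alone its difference was -0.19. With the authors' scaling 0 cornified genes were higher and 9 lower, and 0 basal genes were higher and 7 lower.

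The tuft cell genes were low in mTEC-II and mTEC-III by comparison with mTEC-IV, the L1cam+ population. Of 24 measured, 9 were lower, 1 higher and 14 not called (all genes, 8.79% lower and 6.08% higher), with a median of -0.89. Against mTEC-IV alone 22 were lower and 0 higher (all genes, 10.9% lower and 5.67% higher), and against mTEC-I alone 2 were lower and 5 higher (9.54% and 9.3%). Summed over the list, mTEC-II and mTEC-III held 552 to 691 tags and the other libraries 568 to 1836. Pou2f3 had 42.6 and 53 tags in mTEC-II and 70 and 40.7 tags in mTEC-III, against 62.3 and 66.7 in mTEC-I and 130.0 and 132 in mTEC-IV, so that mTEC-II and mTEC-III overlapped mTEC-I (-0.85 ± 0.17, SE, adjusted p = 0.00225). Il25, the cytokine by which tuft cells act on lymphocytes, had 11.5 and 9.98 tags in mTEC-II and 15 and 11.2 tags in mTEC-III, against 24.3 and 20.1 in mTEC-I and 79.9 and 65 in mTEC-IV. The sides did not overlap, and the mean difference was -1.68 ± 0.256 (SE, adjusted p = 0.000290). In the separate limma pairs Il25 was not called against mTEC-I, with adjusted p = 0.0841 for mTEC-II and 0.184 for mTEC-III. Alox5 differed by -2.03 ± 0.393 (SE, adjusted p = 0.00184), and Trpm5, the cation channel of taste transduction, was not called (-1.16 ± 0.504, SE, adjusted p = 0.131). Trpm5 had 29.8 and 36 tags in mTEC-IV, against 0.887 to 6.1 in the other libraries. In the separate limma pairs it was below mTEC-IV in mTEC-II (adjusted p = 0.00411) and mTEC-III (adjusted p = 0.0107).

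Among regulators of epithelium, Klf5, a zinc finger factor of proliferating epithelium, was the one of 23 lower in all 4 pairs. It had 85.3 and 86.8 tags in mTEC-II and 110.0 and 88.6 tags in mTEC-III, against 146 and 141 in mTEC-I and 176 and 142 in mTEC-IV. The sides did not overlap, and the difference was -0.70 ± 0.122 (SE, adjusted p = 0.000775). Of 16 peaks assigned to Klf5 6 were lower and 0 higher (all peaks, 7.47% and 11.7%). The promoter peak (-0.52 ± 0.135, SE, adjusted p = 0.0125) and peaks at 528 bp (-0.97 ± 0.265, SE, adjusted p = 0.0177) and 2993 bp (-1.70 ± 0.427, SE, adjusted p = 0.0109) did not overlap between the sides. The calls were lost without I-1, I-2 or IV-1 at the promoter, without I-1, I-2, II-1 or IV-1 at 528 bp and without I-1 or IV-1 at 2993 bp. Lower Klf5 peaks at -80004 bp (15.2 and 12.7 tags in mTEC-IV) and 93297 bp (53.7 and 45.0) were open mainly in mTEC-IV. Of the 23, Ehf, Grhl2 and Tfap2a were lower as well, with -0.69 ± 0.172 (SE, adjusted p = 0.0107) for Grhl2, lost without I-2, II-2 or IV-1. Over all genes 6.08% were higher and 8.79% lower. Insm1, a factor of endocrine cells, was higher (1.06 ± 0.191, SE, adjusted p = 0.00104), with 78.4 and 82.9 tags in mTEC-II and 48.3 and 58 tags in mTEC-III, against 23 and 34.2 in mTEC-I and 37.8 and 30.7 in mTEC-IV, and Foxa1 was higher (0.80 ± 0.157, SE, adjusted p = 0.00203) with low values in mTEC-I (25.2 and 21.1) and a difference of -0.17 against mTEC-IV alone. Of 11 genes of thymic epithelial identity 0 were higher, and those lower included Eya1 (-0.57 ± 0.173, SE, adjusted p = 0.0302), a call lost with TMM factors from promoter peaks and without I-1, I-2, II-2, III-1, IV-1 or IV-2. Foxn1 (0.18 ± 0.205, SE, adjusted p = 0.590) and Trp63 (0.00 ± 0.25, SE, adjusted p = 0.994) were not called. For Foxn1 mTEC-I was high (79.1 and 77 tags) and mTEC-IV low (37.8 and 21.2), with 40 to 64.2 in mTEC-II and mTEC-III. Of 18 peaks assigned to Eya1 7 were lower and 1 higher (all peaks, 7.47% and 11.7%). The one 54467 bp downstream had 0 and 0 tags in mTEC-II and 0 and 1.01 tags in mTEC-III, against 0.887 and 0 in mTEC-I and 29 and 21.2 in mTEC-IV, a difference of -2.32 ± 0.489 (SE, adjusted p = 0.00359) made by mTEC-IV alone. The lower peaks at -3878, 17685, 84701, 129613 and 256430 bp were likewise open mainly in mTEC-IV. The peak at 256430 bp held 16.7 and 12.7 tags in mTEC-IV and 0 in every other library. At the lower peak at 5473 bp the sides did not overlap.

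Of 16 claudin and tight junction genes 2 were higher, 3 lower and 11 not called, beside 6.08% higher and 8.79% lower over all genes. Cldn7 had 104 and 118 tags in mTEC-II and 83.3 and 120.2 tags in mTEC-III, against 13.7 and 12.5 in mTEC-I and 147 and 135 in mTEC-IV, so that its difference of 1.25 ± 0.156 (SE, adjusted p = 5.55e-05) was largest from mTEC-I, and against mTEC-IV alone it was -0.41. Cldn1 (-1.02 ± 0.239, SE, adjusted p = 0.00709, lost without I-2) and Cgn, which encodes cingulin (-0.65 ± 0.142, SE, adjusted p = 0.00460), were lower with no overlap. Calls in 2 further lists were near those shares. Of 19 interferon response genes 2 were higher and 2 lower, with a median of -0.27, and of 18 cell cycle genes Aurkb (0.44 ± 0.11, SE, adjusted p = 0.0106, lost without I-1 or IV-2) was higher and 0 lower. Of 8 cortical epithelial genes Prss16, Dll4 and Tbata were higher and Ccl25 lower.

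Most markers of other cells had no peak or were not called. Those called were higher in the myeloid and B cell lists and lower in the thymocyte, endothelial and mesenchymal lists. Over all genes 6.08% were higher and 8.79% lower. Of 4 thymocyte genes measured Cd4 was lower and 0 higher, with 8 of 14 without a peak, among them Cd3e, Cd3d, Cd3g and Cd8a, and sums of 103 to 123 tags in mTEC-II and mTEC-III against 147 to 164. Cd4 held 0 to 1.54 tags in mTEC-II, mTEC-III and mTEC-I and 24.7 and 18.0 in mTEC-IV (-2.13 ± 0.639, SE, adjusted p = 0.0299), a call lost without I-1, I-2 or II-1. Of 4 B cell genes Blk was higher, with Ms4a1 and Pax5 without a peak and sums of 72.6 to 109 against 58.5 to 148. Of 4 endothelial genes 3 were lower, with a median of -1.49 and sums of 56.0 to 65.7 against 84.4 to 129. Pecam1, Cdh5, Tie1 and Sox17 had no peak. The 3 calls differed in the population behind them. Tek was high in mTEC-IV (65.4 and 57.6 tags, against 6.91 to 11.7 in the other libraries) and Emcn in mTEC-I (18.1 and 16.3, against 0 to 3.34). Sox18 was lowest in mTEC-III (3.34 and 5.07), and its mTEC-II was not called against mTEC-I or mTEC-IV. Of 5 mesenchymal genes 1 was lower, with sums of 144 to 206 against 155 to 296. Of 12 housekeeping genes 0 were lower, and those higher included Actb (0.38 ± 0.116, SE, adjusted p = 0.0312), Ppia (0.39 ± 0.116, SE, adjusted p = 0.0285) and B2m (0.37 ± 0.122, SE, adjusted p = 0.0466). All 3 of these, Actb (-0.04), Ppia (-0.03) and B2m (-0.05), turned to the other side of 0 with the authors' scaling. The housekeeping calls of Actb, Ppia and B2m were lost without 5 to 7 of the 8 libraries in turn. The differences of Nfkbia (0.44), Relb (0.43) and Aurkb (0.44) lay within 1 SE of those of Actb and Ppia. The part of other cells in the gene differences was not tested.

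**Figure D5:**
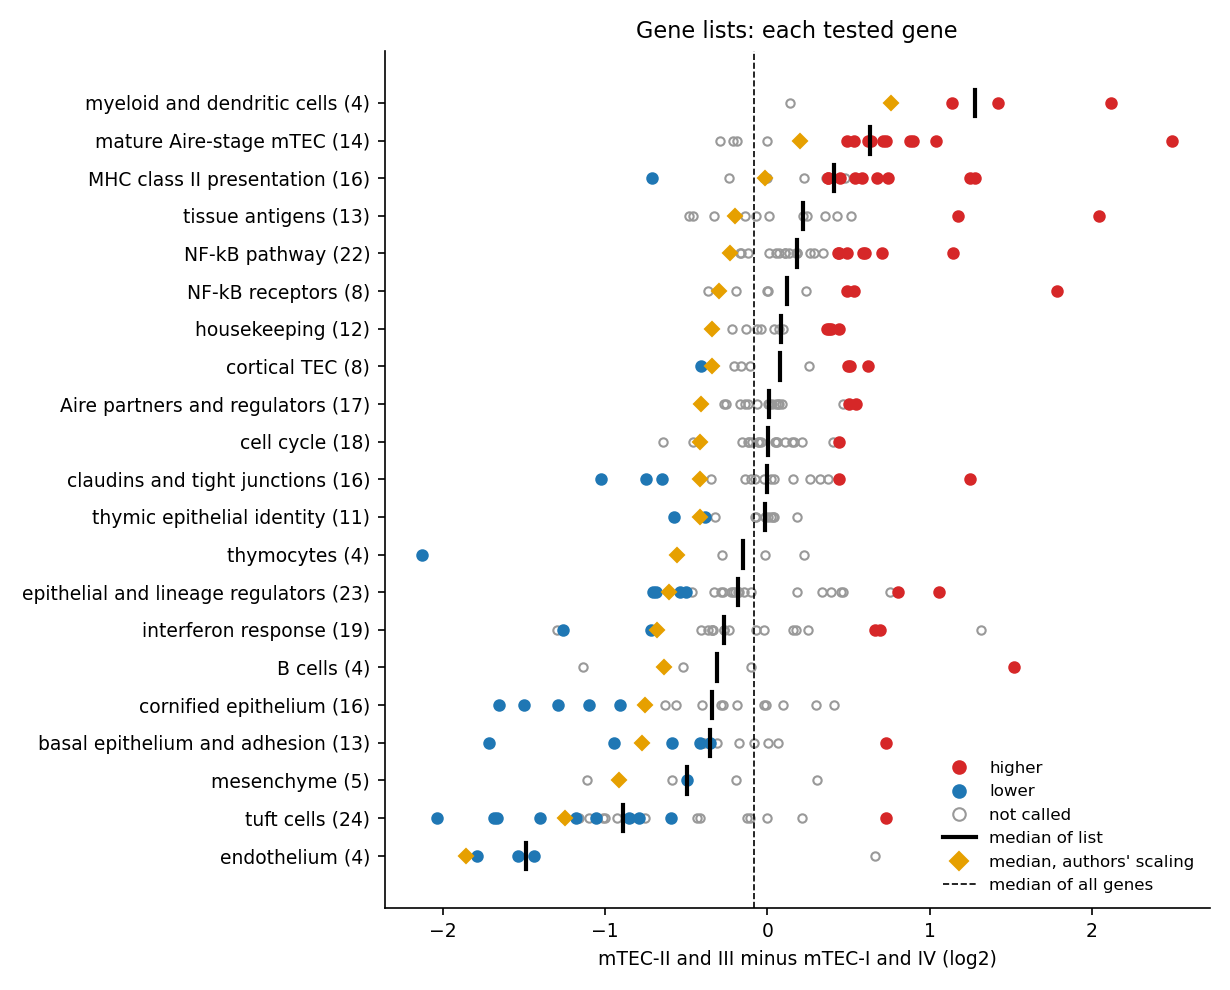
Differences (log2) of every tested gene in 21 lists (number tested in brackets): red higher, blue lower, open circles not called, black bars list medians, orange diamonds medians with the authors' scaling, dashed line the median of all genes (-0.08). The myeloid and dendritic list has the highest median (1.28, 4 tested) and the endothelial list the lowest (-1.49, 4 tested). The Aire-stage list has its median at 0.63 (14 tested) and the tuft cell list at -0.89 (24 tested).

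Of 363 microRNA genes tested, 37 (10.2%) were higher and 29 (7.99%) lower, against 6.08% and 8.79% over all genes. In all 4 pairs 8 were higher and 1 lower, and 7 of these 9 had a mean log2 value of at least 4. The mature sequences of the 3 best known are shown to identify the products, with the seed (bases 2 to 8), by which a microRNA pairs with its targets, in capitals; they are from RefSeq, GRCm38.p6.
mmu-miR-142a-5p: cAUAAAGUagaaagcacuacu
mmu-miR-142a-3p: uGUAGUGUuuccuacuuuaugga
mmu-miR-34a-5p: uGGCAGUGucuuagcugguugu
mmu-miR-101a-3p: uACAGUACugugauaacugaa
No 2 of these share a seed. Mir142, a microRNA gene best known from blood cells, had 197 and 159 tags in mTEC-II and 148 and 157 tags in mTEC-III, against 22.6 and 19.5 in mTEC-I and 99.5 and 94.7 in mTEC-IV. Ptprc, the pan-leukocyte marker CD45 used in the sort, was without any merged peak in the 10 kb window and so gives no value to compare. The part of blood cells in the Mir142 difference was not tested. At Mir142 mTEC-I was lowest, mTEC-IV intermediate and the 4 libraries of mTEC-II and mTEC-III highest, with a difference of 1.83 ± 0.134 (SE, adjusted p = 2.10e-07). Of its 4 tested peaks 3 were higher (all peaks, 11.7%), the strongest 7201 bp from the start (2.08 ± 0.192, SE, adjusted p = 2.30e-05, all 4 pairs). Mir34a, a target of p53, had 131 and 141 tags in mTEC-II and 127 and 127 tags in mTEC-III, against 76.9 and 91.1 in mTEC-I and 55.9 and 64.5 in mTEC-IV and differed by 0.88 ± 0.127 (SE, adjusted p = 0.000174). Mir101a differed by 1.33 ± 0.262 (SE, adjusted p = 0.00210), Mir1930 by 1.30, Mir5103 by 1.1, Mir1981 by 0.86 and Mir7671 by -0.60. These are values of chromatin within 10 kb, where a host or neighbouring gene can lie, and not of mature microRNA.

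Between mTEC-II and mTEC-III few differences were called. Of the genes, 0 were higher in mTEC-II (0%) and 1 lower (0.00665%), Mir101c, by limma with Benjamini-Hochberg adjustment, the only tool run for this pair. At an unadjusted p under 0.05, 1123 genes (7.47%) and 3630 peaks (6.17%) were higher in mTEC-II, and 715 genes (4.76%) and 4554 peaks (7.74%) lower. It held 615 and 903 tags in mTEC-II and 2732 and 1379 tags in mTEC-III, against 981 and 1175 in mTEC-I, and 1391 and 1362 in mTEC-IV, and mTEC-II minus mTEC-III was -1.38 ± 0.203 (SE, adjusted p = 0.0201), with one of the mTEC-III libraries far above the other. The low counts rested on the scaling and on 1 library. With the authors' scaling 6550 peaks and 7633 genes were higher and 240 peaks and 40 genes lower in mTEC-II. Without III-2 the counts were 1085 peaks and 436 genes higher and 461 peaks and 67 genes lower, which leaves mTEC-III with 1 library assumed to vary like the others.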

How the data were processed

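ATAC-seq was measured in 8 libraries, 2 of each of 4 sorted mTEC populations. The deposited table holds, per the file headers, HOMER signal in 8 library columns, in tags per 10000000 total tags, over peaks merged from all libraries and annotated on mm9. The authors called peaks in each library with findPeaks (fragment length 300 bp, FDR 0.001, 4-fold over a local region of 10000 bp), per the file headers. The submitters' processing notes name bcl2fastq 2.15.0.4, Picard 1.108 and HOMER. No aligner, shift of reads for the transposase or handling of multi-mapping reads is named in the sources used here. All deposited signal values are whole multiples of 0.5 tags once scaled back by the total tags in the headers (100%), and these read ends, thinned to equal depth or fitted whole with edgeR and DESeq2, served as alternatives. Because the table holds scaled values, limma replaced the count test, as the plan provided.

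Peaks that reached 10 tags per 10000000 in fewer than 2 libraries were left out of the fit. Values were scaled by TMM (edgeR 4.0.16), put on log2(value + 1) and fitted with limma 3.58.1 in R 4.3.3 with a trended variance and 4 population means. The fold of low features is understated by the pseudocount of 1. P-values were adjusted by Benjamini-Hochberg over all features at a threshold of 0.05. A gene is the sum of its assigned peaks within 10 kb of the start. Other tools were DESeq2 1.42.0, Python 3.11.15, pandas 2.3.3, NumPy 2.4.6, SciPy 1.17.1 and matplotlib 3.10.9. The scripts were tested on simulated data. Precision is limited by 2 libraries a population and by the depth of 3606440 to 10374600 tags; intervals and errors cover these libraries only.

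The comparison, the 21 gene lists and the tests were chosen with earlier results of these data known. Genes named are those of the gates, 10 fixed markers, up to 4 called genes a list, the 10 largest rises and 10 largest falls among called genes with separate sides and a mean log2 value of at least 4 (predicted, microRNA, small nucleolar and antisense genes left out), the 6 largest rises and falls of peaks by the same rule, and the 5 genes with most called peaks and those tied with them. MicroRNA genes called in all 4 pairs, the peaks of 10 genes, Cd74, Ciita, H2-DMa, H2-DMb1, Relb, Nfkb2, Ikbkb, Cd83 and the repeat families were singled out after their values were seen. Some genes that these rules select are not reported here. A nearest gene is the authors' assignment by distance. Alternatives were other scalings (total tags as deposited, TMM from promoter peaks, cyclic loess), pseudocounts, filters, a replicate block, the side as the only term, the population as a random effect, thinned depth, other windows, each population alone, each library left out, edgeR and DESeq2. Those for named loci, microRNAs, the list members above and the II against III and I against IV comparisons were chosen after seeing the data.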

Additional observations from a re-analysis of the deposited data

Results flagged for a closer look

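Among the named genes, a library was set against the other 3 of its side where its distance from them took up more of the range than Dixon's 95% value for 4 libraries allows. Of 218 such groups 8 were picked out (3.67%). Dixon's rate of 5% by chance holds for 4 values of one population. Each group here joins 2 populations, so the 3.67% cannot be read against that rate. Klf5 stood out on both sides: mTEC-III replicate 1 held 110.0 tags against 85.3 to 88.6 in the other 3, and mTEC-IV replicate 1 held 176 against 141 to 146, so that its lower call kept separate sides with 1 high library on each. Atp4a in mTEC-III replicate 2 was at 60.1, below 97.9 to 99.99. Zp2 in mTEC-IV replicate 2 was at 15.9, above 6.63 to 7.98 and far below mTEC-II and mTEC-III. Ctsl was high in mTEC-II replicate 1 (56.5 against 31.7 to 34.6) and in mTEC-I replicate 2 (81.3 against 56.6 to 58.2). L1cam in mTEC-II replicate 1 was at 1.16 against 3.05 to 3.34, and Cd4 in mTEC-II replicate 2 was at 1.54 with the other 3 at 0; both are a few read ends.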

How the results depend on the processing

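Higher and lower peaks were 4030 and 13303 with the authors' scaling, and higher and lower genes 329 and 5976; with TMM from promoter peaks genes were 1538 and 842. Stricter higher and lower peaks were 494 and 313 with the authors' scaling, and stricter lower peaks 67 with TMM from promoter peaks, 181 with cyclic loess and 178 with a pseudocount of 5. Lower peaks were 9228 with a pseudocount of 5, and a filter of 20 gave 4570 higher and 2880 lower. With the side as the only term peaks were 1267 and 202 and genes 155 and 127, and with the population as a random effect peaks were 15 and 0 and genes 22 and 7. With thinned depth 2723 peaks and 830 genes were lower, with DESeq2 2547 peaks and 807 genes were lower, and with edgeR 1533 genes were higher.

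mTEC-III alone gave 4544 higher and 2685 lower peaks and 553 higher genes, and mTEC-II alone 700 lower genes. Lower peaks were 7800 against mTEC-I alone and 8969 against mTEC-IV alone, and higher genes were 1398 against mTEC-I alone. Peaks within 1 kb gave 262 higher and 715 lower genes, and peaks at any distance 1818 and 2414. In mTEC-II against mTEC-III, higher and lower peaks were 6550 and 240 with the authors' scaling, 4 and 47 with TMM from promoter peaks, 12 and 94 with loess, 0 and 0 with a pseudocount of 0.5, 85 and 233 with 5, 5 and 44 with no filter and 6 and 58 with a filter of 20. That filter gave 6315 and 6512 in mTEC-I against mTEC-IV.

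With 1 library left out, a population is left with 1 library assumed to vary like the others. Ranges were 4589 to 6705 higher and 1180 to 7087 lower peaks, 532 to 970 and 8 to 207 in the stricter class, 527 to 1001 higher and 470 to 2135 lower genes, 0 to 1085 and 0 to 461 peaks for mTEC-II against mTEC-III, and 4618 to 13427 and 3246 to 13215 for mTEC-I against mTEC-IV. The difference in the share of tags in peaks was -6.37 to -3.24 percentage points, in promoter tags -1.24 to 0.18, in intronic tags -0.12 to 0.47, in intergenic tags -0.09 to 0.99 and in CpG island tags -0.44 to -0.22.

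The replicate numbers did not pair the libraries, with correlations of deviations between -0.014 and 0.0329. A replicate block gave 6879 higher and 4534 lower peaks, and 8 and 59 for mTEC-II against mTEC-III. Of 97 named called genes, 93 kept their call under it, 91 with TMM from promoter peaks, 62 of 95 with the authors' scaling and 7 with the random effect.

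Signs turned for Actb (-0.042), Ppia (-0.033) and B2m (-0.054) with the authors' scaling. Against mTEC-I alone they turned for Pdcd1lg2 (-0.22), Krt14 (-0.19), Ciita (-0.28), Avil (0.42), Rgs13 (0.99), Cxcl10 (-0.057) and peaks of Nfkbia at 36024 bp (0.046), Tnfrsf11a at -23181 bp (-0.31), Klf5 at 93297 bp (0.22) and Eya1 at -3878 bp (0.40) and 129613 bp (0.49). Against mTEC-IV alone they turned for Krt5 (0.35), Cldn7 (-0.41), Foxa1 (-0.17), Col1a1 (0.021) and the Nfkbia peak at 26916 bp (-0.032). Pdcd1lg2 within 1 kb was -0.33, and Calml3 at any distance 0.071. Apart from the alternatives that by construction use fewer libraries, peaks or populations, the cause of these changes was not tested.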

Other observations

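The X chromosome held few higher peaks: 31 of 811 tested (3.82%) were higher and 48 (5.92%) lower, while on single autosomes 9.64% to 13.6% were higher. With the authors' scaling the X chromosome had 20 higher and 187 lower peaks. Peaks annotated as satellite repeats were higher at 6 of 51 (11.8%) and lower at 0.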
